A study of Mus musculus with 12 samples.

Results

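Synaptotagmins and complexins are the proteins that tie synaptic vesicle fusion to calcium, and 10 of their genes, Syt1, Syt2, Syt4, Syt5, Syt6, Syt7, Syt10, Cplx1, Cplx2 and Cplx3, were followed in sorted cortical neurons of the mouse. They were taken by exact gene symbol among the 19937 genes that had their own probe set, and each of the 10 had exactly 1. RNA was measured in interneurons at P10 (IN P10) and P0 (IN P0) and in pyramidal cells at P12 (Pyr P12) and P0 (Pyr P0), on Affymetrix Mouse Gene 1.0 ST arrays, with biological replicates A, B and C in each of the 4 groups. Interneurons carried GFP from the RCE:LoxP reporter after recombination by Nkx2-1Cre, and pyramidal cells after recombination by NexCre. All samples are labelled with the strain C57BL6 and carried both a Cre allele and the reporter. The interneuron labels give the cortex and the pyramidal labels the somatosensory cortex, so area differs between the populations along with cell type, and the older groups also differ by age. Nkx2-1 acts in progenitors of the medial ganglionic eminence, which give rise to parvalbumin and somatostatin interneurons and also to some oligodendrocyte lineage cells. The labels do not say how many animals made up a sample, so p-values measure the spread between these samples.

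Synaptotagmins hold tandem C2 domains, which in the calcium-sensing members bind calcium, membrane lipids and the SNARE complex. In the brain, Syt1 and Syt2 are sensors of fast synchronous release, with Syt2 known from fast synapses such as the terminals of parvalbumin basket cells. Syt7 binds calcium with high affinity and serves slower, asynchronous release, while Syt4 is known from dense-core and other non-synaptic vesicles and as a synaptotagmin with altered calcium binding. Complexins are small soluble proteins that grip the assembled SNARE complex and both hold back and promote fusion. Cplx1 and Cplx2 are the common complexins of the brain, and Cplx3 is best known from retinal ribbon synapses and from subplate neurons of the cortex.

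Values are log2 RMA signals, in which a difference of 1 is a 2-fold change, and levels are compared only within a gene because probe sets differ in brightness. A call needed a fold change over 2 and, in limma, an adjusted p under 0.05 by the Benjamini-Hochberg method over 22961 probe sets. Background was taken as the 95th percentile of 1208 probe sets for olfactory or vomeronasal receptors, and it ran from 7.13 to 7.45 across the 12 arrays. All 10 genes were above it on every array of at least 1 group, and 9 of them, all but Cplx3, on all 12 arrays. With 3 arrays per group the number of arrays limits the precision, and in sorted samples fewer cells of a type and less RNA per cell cannot be told apart. Interneurons exceeded pyramidal cells in all 6 pan-interneuron markers read, both at P0 and in the older pair, and 8 of 11 pyramidal markers were called lower in interneurons in each pair. Over all probe sets, 2.65% were called higher and 2.91% lower in IN P10 against Pyr P12, and 1.9% and 1.74% in IN P0 against Pyr P0. Bcl11b went the other way, with 0.94 in IN P10 against Pyr P12 and 0.61 in IN P0 against Pyr P0, as did Cux2 in IN P0 against Pyr P0 (0.71), all under the fold threshold.

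**Figure D1:**
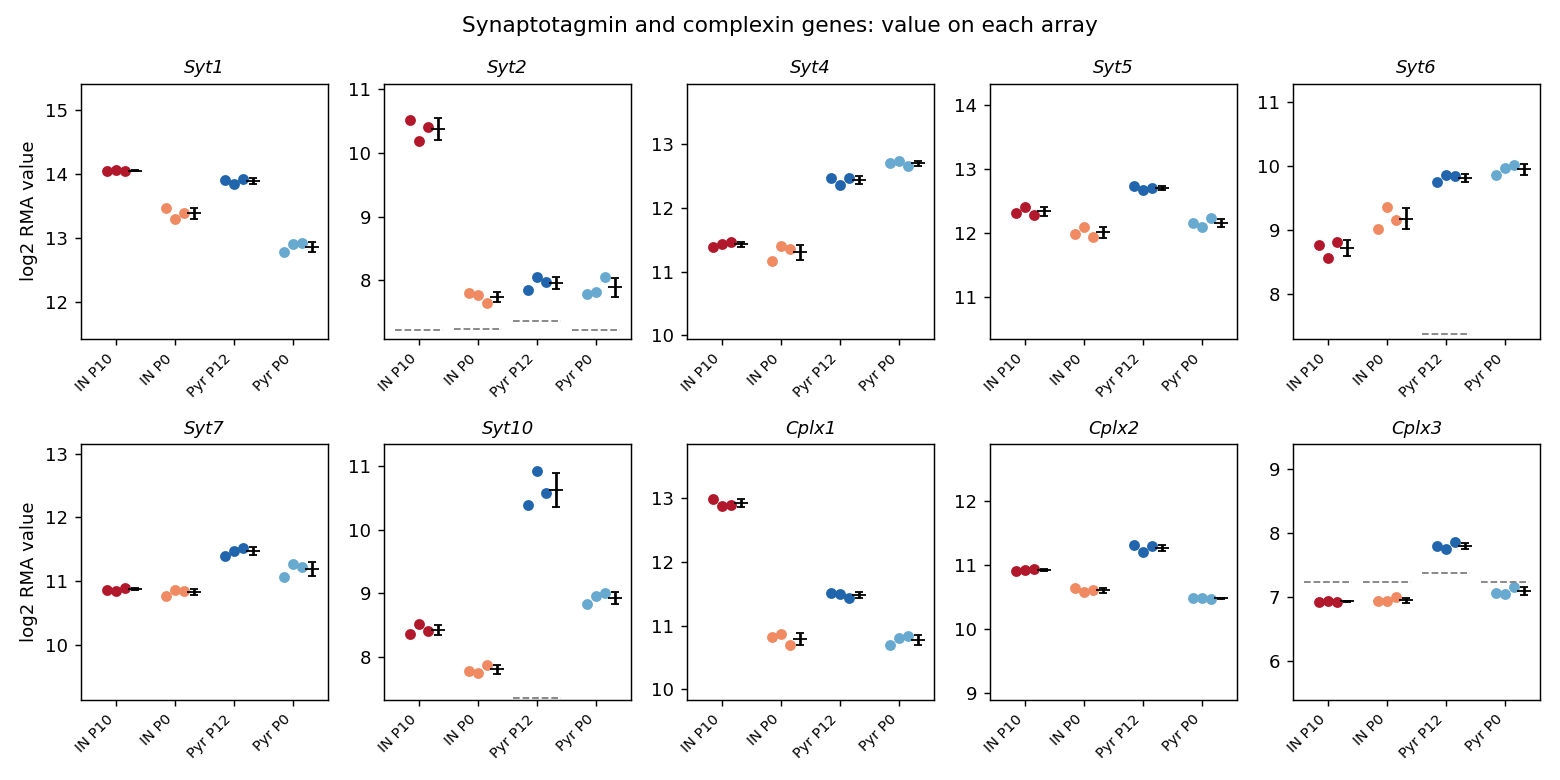
Log2 RMA value (y axis) of each gene on each array, with points for the 3 arrays of a group, a bar for the mean ± SD beside them and the mean background level of the group as a dashed line where it falls within the axis. Every panel spans 4 log2 units. Syt2 and Cplx1 stand highest in IN P10 (means 10.37 and 12.92), Syt10 in Pyr P12 (10.62), and Cplx3 lies above background in Pyr P12 alone.

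Syt2 was raised in the older interneurons and in no other group. It read 10.52, 10.19 and 10.41 in IN P10, against 7.80, 7.78 and 7.65 in IN P0. The pyramidal arrays read 7.85, 8.06 and 7.97 in Pyr P12, against 7.79, 7.82 and 8.06 in Pyr P0. The lowest IN P10 array thus lay over 2 log2 units above the highest of the other 9 arrays. Among those, Pyr P0 overlapped with IN P0 and with Pyr P12, which lay just above IN P0. These 9 arrays read 7.65 to 8.06, close above the background of 7.13 to 7.45, so differences among them were measured near the floor. Syt2 rose by 2.63 in IN P10 against IN P0 (SE 0.09, adjusted p = 1.12e-10, 6.21-fold). Its difference in Pyr P12 against Pyr P0 was 0.07 (95% confidence interval -0.13 to 0.27, adjusted p = 0.55). The postnatal change differed between interneurons and pyramidal cells by 2.56 (SE 0.13, adjusted p = 1.4e-08). In IN P10 it was higher than in Pyr P12 by 2.41 (SE 0.09, adjusted p = 1.87e-10), while at P0 the difference of interneurons from pyramidal cells was -0.15 (interval -0.35 to 0.05, adjusted p = 0.337).

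Syt1, the most widely used fast sensor of the forebrain, rose in both populations. Its signal was 14.04, 14.06 and 14.05 in IN P10, against 13.46, 13.29 and 13.39 in IN P0. It was 13.91, 13.84 and 13.92 in Pyr P12, against 12.77, 12.90 and 12.91 in Pyr P0. The older arrays lay above the newborn arrays of the same population without overlap. The rise was 1.03 in Pyr P12 against Pyr P0 (SE 0.06, adjusted p = 4.03e-09, 2.04-fold), which was called, and 0.67 in IN P10 against IN P0 (SE 0.06, adjusted p = 3.53e-07, 1.59-fold), which passed the adjusted p but not the fold threshold. The call in pyramidal cells sat at the fold threshold, since the difference was 1.00 after centring each array on its median and 0.98 without array A of Pyr P0, and it was not called in either case. The rise was smaller in interneurons by 0.36 (difference -0.36, SE 0.08, adjusted p = 0.00439). Interneurons started from a higher level, with 0.51 in IN P0 against Pyr P0 (adjusted p = 1.2e-05), and the older groups differed by 0.16 (interval 0.03 to 0.28, adjusted p = 0.0369).

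Cplx1, which encodes the complexin that predominates in many fast inhibitory neurons, followed Syt2 more than Syt1. It read 12.99, 12.88 and 12.89 in IN P10, against 10.82, 10.87 and 10.69 in IN P0. The pyramidal values were 11.51, 11.50 and 11.43 in Pyr P12, against 10.69, 10.80 and 10.84 in Pyr P0. The newborn groups overlapped, the Pyr P12 arrays stood above them, and the IN P10 arrays stood above all others. Cplx1 rose by 2.13 in IN P10 against IN P0 (SE 0.06, adjusted p = 2.04e-11, 4.37-fold) and had 0.71 in Pyr P12 against Pyr P0 (SE 0.06, adjusted p = 3.6e-07), under the fold threshold. The changes differed by 1.42 (SE 0.09, adjusted p = 6.47e-08), and IN P10 exceeded Pyr P12 by 1.44 (adjusted p = 5.01e-10). At P0 the difference between the populations was 0.02 (interval -0.12 to 0.15, adjusted p = 0.925). Over the 12 arrays the Pearson r of Cplx1 with Syt2 was 0.96 and with Syt1 0.81, a description of arrays that fall into 4 groups.

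The promoters of Syt2 and Cplx1 are shown because both genes rose together in interneurons, and that of Syt10 because it was the member that rose most in pyramidal cells. The sequences are the 250 bases before the transcription start from RefSeq on GRCm38.p6, read 5′ to 3′ on the strand of the gene, and capitals mark matches to the motifs named after them. Syt2 has 2 annotated starts, with windows at chr1:134646362-134646611 and chr1:134709050-134709299 on the plus strand. The Cplx1 window is chr5:108550028-108550277 and the Syt10 window chr15:89841861-89842110, both on the minus strand.
Syt2, upstream start: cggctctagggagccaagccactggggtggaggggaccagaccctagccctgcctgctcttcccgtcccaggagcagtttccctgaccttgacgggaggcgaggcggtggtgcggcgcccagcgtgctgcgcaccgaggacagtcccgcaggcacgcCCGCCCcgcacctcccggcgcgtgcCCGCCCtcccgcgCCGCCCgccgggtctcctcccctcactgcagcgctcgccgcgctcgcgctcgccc
Syt2, downstream start: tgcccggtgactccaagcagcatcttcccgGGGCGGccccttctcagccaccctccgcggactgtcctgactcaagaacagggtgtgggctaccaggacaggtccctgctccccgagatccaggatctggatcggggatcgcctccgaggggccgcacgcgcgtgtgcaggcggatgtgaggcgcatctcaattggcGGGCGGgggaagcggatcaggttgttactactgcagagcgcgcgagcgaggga
Cplx1: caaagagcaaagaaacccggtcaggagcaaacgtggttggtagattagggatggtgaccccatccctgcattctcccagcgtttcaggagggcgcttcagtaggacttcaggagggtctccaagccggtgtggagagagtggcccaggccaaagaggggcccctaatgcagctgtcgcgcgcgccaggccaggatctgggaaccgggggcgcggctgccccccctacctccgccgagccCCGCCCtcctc
Syt10: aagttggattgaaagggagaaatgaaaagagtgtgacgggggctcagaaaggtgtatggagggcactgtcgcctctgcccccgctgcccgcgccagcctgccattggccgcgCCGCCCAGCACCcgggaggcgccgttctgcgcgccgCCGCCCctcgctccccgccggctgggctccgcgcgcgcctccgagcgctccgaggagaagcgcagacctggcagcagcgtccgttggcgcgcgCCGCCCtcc

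These promoters were rich in G and C, which made up 76.0% and 66.4% of the bases at the Syt2 starts, 64.8% at Cplx1 and 72.0% at Syt10, against a median of 52.4% over 32841 mouse promoters of the same length. The search covered both strands for the GC box GGGCGG, the TATA box TATAAA, the cAMP response element TGACGTCA, the E-box CACGTG and the heptamers CAGCACC and GGACAGC of the RE1 element. The GC box occurred 3 times and 2 times at the Syt2 starts, once at Cplx1 and 3 times at Syt10, where a GC box overlaps the CAGCACC match by 1 base. Of the 11 windows read, which covered 7 of the 10 genes (all but Syt4, Syt5 and Syt7), 8 held a GC box, against 32.7% of all promoters. The windows shared none of the TATA box (0 of 11, 12.4% of all promoters) or the cAMP response element (0 of 11, 1.55%). An E-box stood in 3 of 11 (6.02% of all), CAGCACC in 1 of 11 (5.73%) and GGACAGC in 3 of 11 (5.29%), these last all at Syt6, where 2 of 3 windows overlap. The overlapping windows share 1 E-box, 1 GGACAGC and 2 GC boxes, so the same sites were counted in both windows. A match is a description of the letters and not a bound site.

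Syt10, which encodes a sensor of IGF-1 vesicle exocytosis in olfactory bulb neurons, was highest in the older pyramidal cells. It read 8.36, 8.52 and 8.41 in IN P10, against 7.79, 7.75 and 7.88 in IN P0. In pyramidal cells it read 10.38, 10.92 and 10.57 in Pyr P12, against 8.83, 8.96 and 9.0 in Pyr P0. The 4 groups did not overlap, and both pyramidal groups lay above both interneuron groups. Syt10 rose by 1.69 in Pyr P12 against Pyr P0 (SE 0.11, adjusted p = 1.33e-08, 3.23-fold) and had 0.62 in IN P10 against IN P0 (SE 0.11, adjusted p = 0.000243), under the fold threshold. Against pyramidal cells it was 4.58-fold lower in IN P10 (log2 difference -2.19, adjusted p = 1.72e-09) and 2.18-fold lower in IN P0 (-1.12, adjusted p = 2.39e-06). The postnatal changes differed by -1.07 (SE 0.15, adjusted p = 0.00011), a call that was lost at -0.92 without array B of Pyr P12, the highest array of the gene.

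Syt4 and Syt6 were lower in interneurons than in pyramidal cells at both ages, and neither had a postnatal call in either population. Syt4 read 11.39, 11.43 and 11.46 in IN P10 and 11.16, 11.40 and 11.35 in IN P0, against 12.46, 12.36 and 12.46 in Pyr P12 and 12.70, 12.73 and 12.66 in Pyr P0. Every interneuron array thus lay below every pyramidal array. Syt4 was lower in IN P0 than in Pyr P0 by 2.62-fold (-1.39, SE 0.06, adjusted p = 1.64e-09). In IN P10 against Pyr P12 it had -1.0 (SE 0.06, adjusted p = 2.21e-08), a value just short of the fold threshold that passed it at -1.0 to -1.03 when array B or C of IN P10 or array B of Pyr P12 was left out. With age Syt4 had -0.27 in pyramidal cells (adjusted p = 0.00241) and 0.12 in interneurons (interval -0.01 to 0.26, adjusted p = 0.141).

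Syt6, which is studied in the sperm acrosome reaction, read 8.77, 8.57 and 8.81 in IN P10 and 9.02, 9.36 and 9.16 in IN P0. In pyramidal cells it read 9.76, 9.87 and 9.84 in Pyr P12 and 9.86, 9.98 and 10.02 in Pyr P0. The interneuron groups lay apart from each other and below the pyramidal groups, which overlapped. Syt6 was called lower in IN P10 against Pyr P12 (-1.11, SE 0.09, adjusted p = 2.16e-07, 2.16-fold) and had -0.77 in IN P0 against Pyr P0 (adjusted p = 1.34e-05). It was the member with the most negative postnatal difference in interneurons, -0.47 (SE 0.09, adjusted p = 0.000489), under the fold threshold, and had -0.13 in pyramidal cells (interval -0.32 to 0.06, adjusted p = 0.23). The difference between these changes, -0.34, missed the threshold (adjusted p = 0.0531).

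Syt5 and Syt7 varied least among the synaptotagmins, with group means 0.69 and 0.64 log2 units apart at most. Syt5, a calcium-binding synaptotagmin of secretory vesicles, averaged 12.34 ± 0.07 in IN P10 and 12.01 ± 0.09 in IN P0, with 12.70 ± 0.03 in Pyr P12 and 12.16 ± 0.06 in Pyr P0 (SD, n = 3 each). It had 0.33 in IN P10 against IN P0 (adjusted p = 0.000364) and 0.54 in Pyr P12 against Pyr P0 (adjusted p = 3.67e-06), and both were under the fold threshold. Syt7 averaged 10.88 ± 0.02 in IN P10 and 10.83 ± 0.05 in IN P0, with 11.47 ± 0.06 in Pyr P12 and 11.19 ± 0.11 in Pyr P0. Its postnatal difference was 0.05 in interneurons (interval -0.09 to 0.18, adjusted p = 0.619) and 0.28 in pyramidal cells (adjusted p = 0.0015). Syt7 was below its pyramidal level in interneurons at both ages, by -0.59 in IN P10 against Pyr P12 (adjusted p = 3.17e-06) and -0.36 in IN P0 against Pyr P0 (adjusted p = 0.000577), without reaching a 2-fold difference.

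Among the other complexins, Cplx2 had its largest postnatal difference in pyramidal cells, the opposite of Cplx1. It read 10.90, 10.92 and 10.93 in IN P10, against 10.64, 10.57 and 10.60 in IN P0. Its values were 11.31, 11.21 and 11.30 in Pyr P12, against 10.48, 10.49 and 10.47 in Pyr P0. The 4 groups did not overlap. The difference was 0.31 in interneurons (adjusted p = 7.06e-05) and 0.79 in pyramidal cells (adjusted p = 7.06e-09), both under the fold threshold, and the changes differed by -0.48 (SE 0.07, adjusted p = 9.76e-05).

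Cplx3 was not above background on any array of IN P10, IN P0 or Pyr P0. It read 7.79, 7.75 and 7.86 in Pyr P12, where background lay between 7.30 and 7.45, while the other 9 arrays read 6.92 to 7.15. The Pyr P12 signal was therefore at least 1.49-fold that of Pyr P0 and at least 1.49-fold that of IN P10, counted against the background level of the dimmer group. The measured means were 6.93 in IN P10, 6.95 in IN P0, 7.80 in Pyr P12 and 7.09 in Pyr P0, and limma gave adjusted p = 4.15e-08 for Pyr P12 against Pyr P0.

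**Figure D2:**
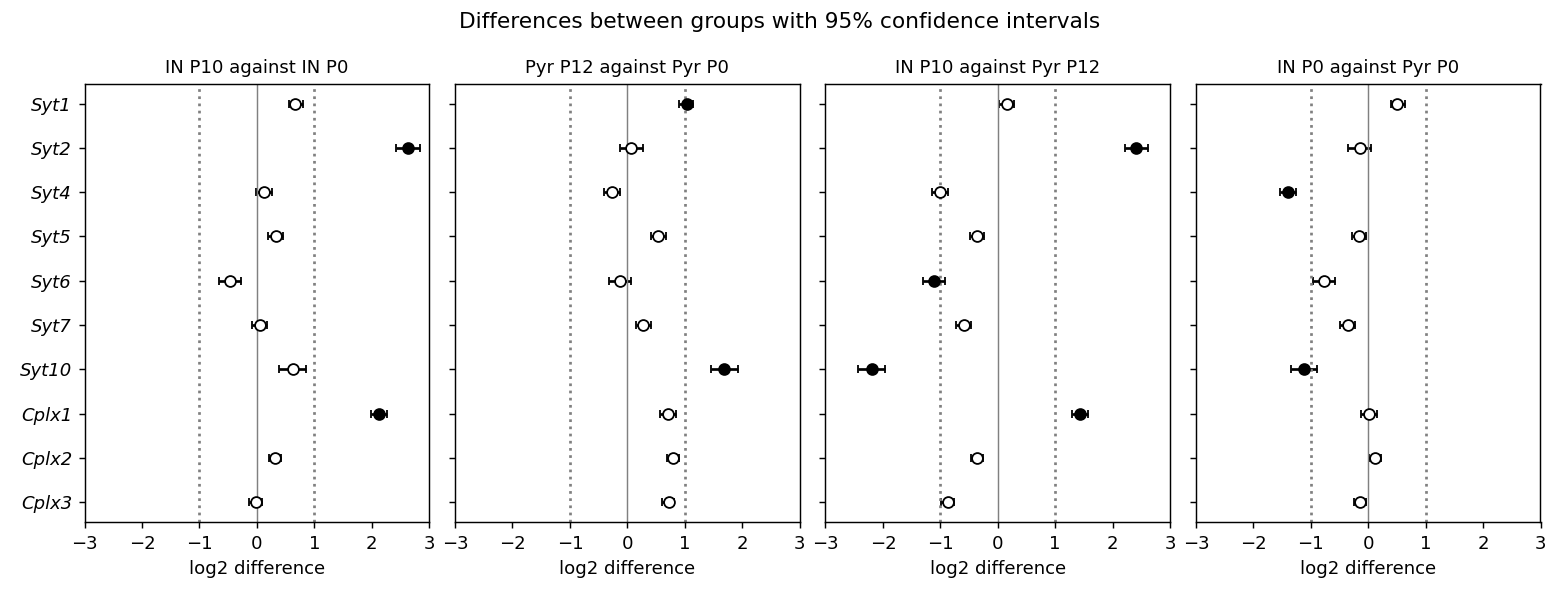
Log2 difference (x axis) of each gene (y axis) in 4 comparisons, with 95% confidence intervals from limma that are not adjusted for the number of probe sets. Filled points passed the adjusted p and the 2-fold threshold, which is drawn as dotted lines. Syt2 and Cplx1 are filled on the right for IN P10 against both IN P0 and Pyr P12, and Syt10 is filled on the left in both comparisons of interneurons with pyramidal cells.

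With age in interneurons (IN P10 against IN P0), 2 of the 10 genes were called higher (Syt2 and Cplx1) and 0 lower, where 4.19% of all probe sets were higher and 2.85% lower. SAM, the test named in the study's methods, gave the same counts. At an adjusted p under 0.05 with no fold threshold, 6 were higher and 1 lower, against 45.5% of all probe sets in either direction. The median log2 difference of the 10 was 0.32, and of all tested probe sets 0.00. In Pyr P12 against Pyr P0, 2 were called higher (Syt1 and Syt10) and 0 lower, with 5.68% higher and 3.48% lower over all probe sets. With no fold threshold 7 were higher and 1 lower (54.7% of all probe sets in either direction), and the median was 0.62, against 0.06. At the 2-fold threshold the genes called in interneurons were thus others than those called in pyramidal cells. With no fold threshold Syt1, Syt5, Syt10, Cplx1 and Cplx2 were higher with age in both populations. At a fold over 1.5, Syt1 (0.67 and 1.03), Syt10 (0.62 and 1.69) and Cplx1 (2.13 and 0.71) were called in both. The test of the difference itself passed for Syt2, Cplx1 and Syt10 at a fold over 2, with 2 higher and 1 lower in interneurons (2.24% and 2.63% of all probe sets). With no fold threshold 7 of the 10 passed that test, against 32.1% of all probe sets, and for Syt1 the difference was -0.36.

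In IN P10 against Pyr P12, 2 genes were higher (Syt2 and Cplx1, 2.65% of all probe sets) and 2 lower (Syt6 and Syt10, 2.91%). With no fold threshold all 10 passed, 3 higher and 7 lower, where 46.6% of all probe sets passed in either direction. In IN P0 against Pyr P0, 0 were higher (1.9% of all probe sets) and 2 lower (Syt4 and Syt10, 1.74%), and with no fold threshold 5 passed, 1 higher and 4 lower (22.4% of all). The median log2 difference of the 10 was -0.48 in the older pair and -0.15 in the newborn pair, against -0.07 and -0.00 over all probe sets. Comparisons that use the same arrays are not independent of each other.

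**Figure D3:**
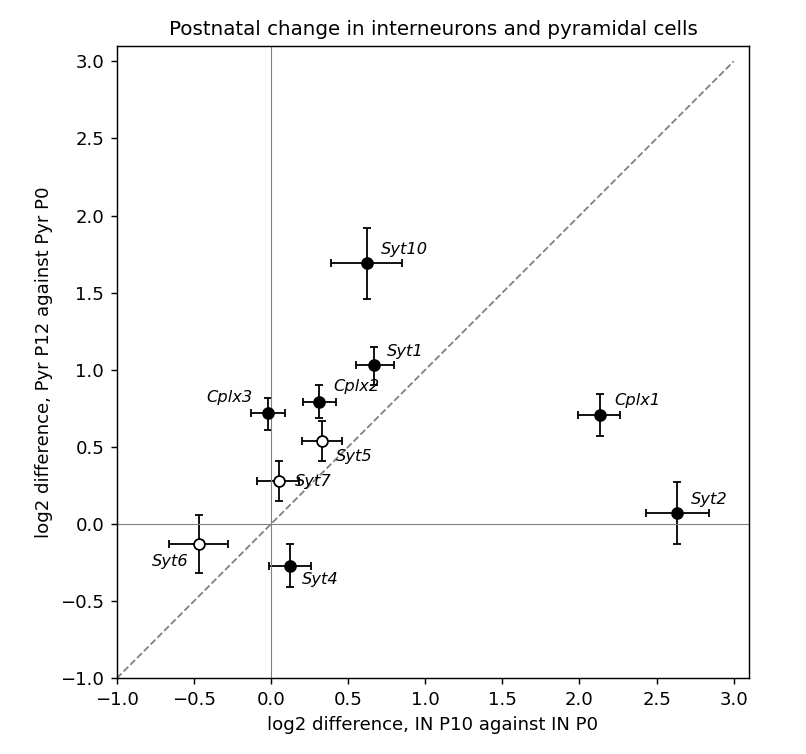
Log2 difference of each gene in IN P10 against IN P0 (x axis) and in Pyr P12 against Pyr P0 (y axis), with 95% confidence intervals; the dashed line marks equal change. Filled points are the 7 genes whose changes differed between the populations at an adjusted p under 0.05. Syt2 (2.63 and 0.07) and Cplx1 (2.13 and 0.71) lie far below the line and Syt10 (0.62 and 1.69) above it.

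The order of the 4 groups differed from gene to gene. IN P10 was the highest group for Syt1, Syt2 and Cplx1, Pyr P12 for Syt5, Syt7, Syt10, Cplx2 and Cplx3, and Pyr P0 for Syt4 and Syt6. Neighbouring groups in this order were told apart at an adjusted p under 0.05 throughout for Syt1 and Syt10. For Syt2 the 3 groups other than IN P10 were not told apart from their neighbours (adjusted p = 0.55 and 0.337). IN P10 and IN P0 were not told apart for Syt4, Syt7 or Cplx3, nor Pyr P12 and Pyr P0 for Syt6 (adjusted p = 0.23). IN P0 and Pyr P0, as neighbours, were not told apart for Syt5, Cplx1, Cplx2 or Cplx3 (adjusted p = 0.0843, 0.925, 0.0882 and 0.077). Cplx3 was not above background in those groups or in IN P10. Some neighbours differ in both population and age. IN P10 was above Pyr P0 for Syt5 (gap 0.17, adjusted p = 0.0273) and below it for Syt7 (0.31) and Syt10 (0.50), where 22.6% of all probe sets were higher and 24.4% lower at an adjusted p under 0.05. IN P0 was below Pyr P12 for Syt1 (0.51), Syt6 (0.64) and Cplx1 (0.69), where 22.9% of all probe sets were higher and 34.7% lower.

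The genes most like each member by Pearson r over the 12 arrays, among 14630 other genes above background in at least 1 group, are a description only, since the 12 arrays form 4 groups. Syt1 was most like Pclo, a scaffold gene of the active zone (r = 0.995), and the SNARE gene Snap25 (0.993). Syt2 was most like Gpr83, which encodes a G protein-coupled receptor (0.995), and the perineuronal net link protein gene Hapln1 (0.994). Hapln1 averaged 10.59 in IN P10 and 6.32 in IN P0, with 6.89 in Pyr P12 and 6.34 in Pyr P0. All of these means but that of IN P10 lay below background, which ran from 7.13 to 7.45. Cplx1 was most like Cs, which encodes the mitochondrial enzyme citrate synthase (0.997), and the proenkephalin gene Penk (0.993). For Syt4 the leading gene was Pik3r1, a regulatory subunit gene of PI3 kinase (0.997). Syt6 was most like Rprm, which encodes the p53 target reprimo (0.986), followed by the pyramidal transcription factor genes Fezf2 (0.984) and Neurod2 (0.983), and Cplx2 with Cdk5r2, an activator gene of CDK5 (0.995). Syt10 was most like Klhl3 (0.994), Syt7 most like Csmd2 (0.988), Syt5 most like Aagab (0.988) and Cplx3 most like Ptchd1 (0.996).

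Other genes of the release machinery were read in lists that were chosen with earlier results of these data known. Of 11 further synaptotagmin and complexin genes, the older interneurons had 4 called higher and 1 lower, and the older pyramidal cells 3 higher and 0 lower. Over all probe sets 4.19% were higher and 2.85% lower in interneurons, and 5.68% and 3.48% in pyramidal cells. Syt17, which encodes an atypical synaptotagmin without calcium binding, rose by 2.84 and 2.86 in these comparisons, and the changes differed by -0.02 (adjusted p = 0.924). Syt3 rose by 2.35 in interneurons and had 0.81 in pyramidal cells, where it did not reach the fold threshold, and the changes differed by 1.53 (adjusted p = 2.56e-07). Syt13 went the other way, with rises of 1.39 in interneurons and 2.81 in pyramidal cells and a difference of -1.42 (adjusted p = 3.66e-08). Syt9, the gene of the remaining fast sensor, had -0.08 in interneurons (adjusted p = 0.59) and -0.85 in pyramidal cells (adjusted p = 3.7e-06), under the fold threshold.

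Of 12 further calcium sensors and tethers with C2 domains, 3 were higher with age in interneurons and 2 in pyramidal cells, with 0 lower in each. The shares called higher over all probe sets were 4.19% and 5.68%. Doc2b, which encodes a sensor of spontaneous release, shared the direction of Syt2 with 2.03 in interneurons and -0.45 in pyramidal cells, and the changes differed by 2.48 (adjusted p = 6.93e-09). Rph3a, which encodes the Rab3 effector rabphilin, had 0.25 in interneurons and rose by 1.93 in pyramidal cells (difference -1.69, adjusted p = 1.84e-07).

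Of 9 genes of the SNARE core and its regulators, 3 were higher with age in interneurons and 5 in pyramidal cells, and 0 were lower. Among all probe sets 4.19% were higher in interneurons and 5.68% in pyramidal cells. Their median log2 difference was 0.76 in interneurons and 1.35 in pyramidal cells. Snap25, the partner of Syt1 in the fusion complex, had 0.76 in IN P10 against IN P0 and rose by 1.40 in Pyr P12 against Pyr P0. Vamp1, the vesicle SNARE gene of many fast synapses, rose by 1.65 in interneurons and had 0.93 in pyramidal cells (difference 0.72, adjusted p = 6.28e-05, under a 2-fold size).

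Of 12 priming and active zone genes, 1 was higher with age in interneurons, Rab3b (1.52), which encodes a vesicle GTPase, and 4 in pyramidal cells. The shares over all probe sets were 4.19% in interneurons and 5.68% in pyramidal cells. Cadps2, which encodes a priming factor of dense-core vesicles, rose by 3.18 in pyramidal cells and had -0.44 in interneurons, a difference of -3.62 (adjusted p = 4.12e-10). Of 9 genes of vesicle membrane proteins and synapsins, 6 were higher with age in each population (4.19% and 5.68% of all probe sets) and 0 lower. Sv2b, a member of the family whose SV2A protein binds Syt1, was lower in interneurons, with -4.63 in IN P10 against Pyr P12 (adjusted p = 5.77e-12) and -2.70 in IN P0 against Pyr P0 (adjusted p = 1.8e-09).

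**Figure D4:**
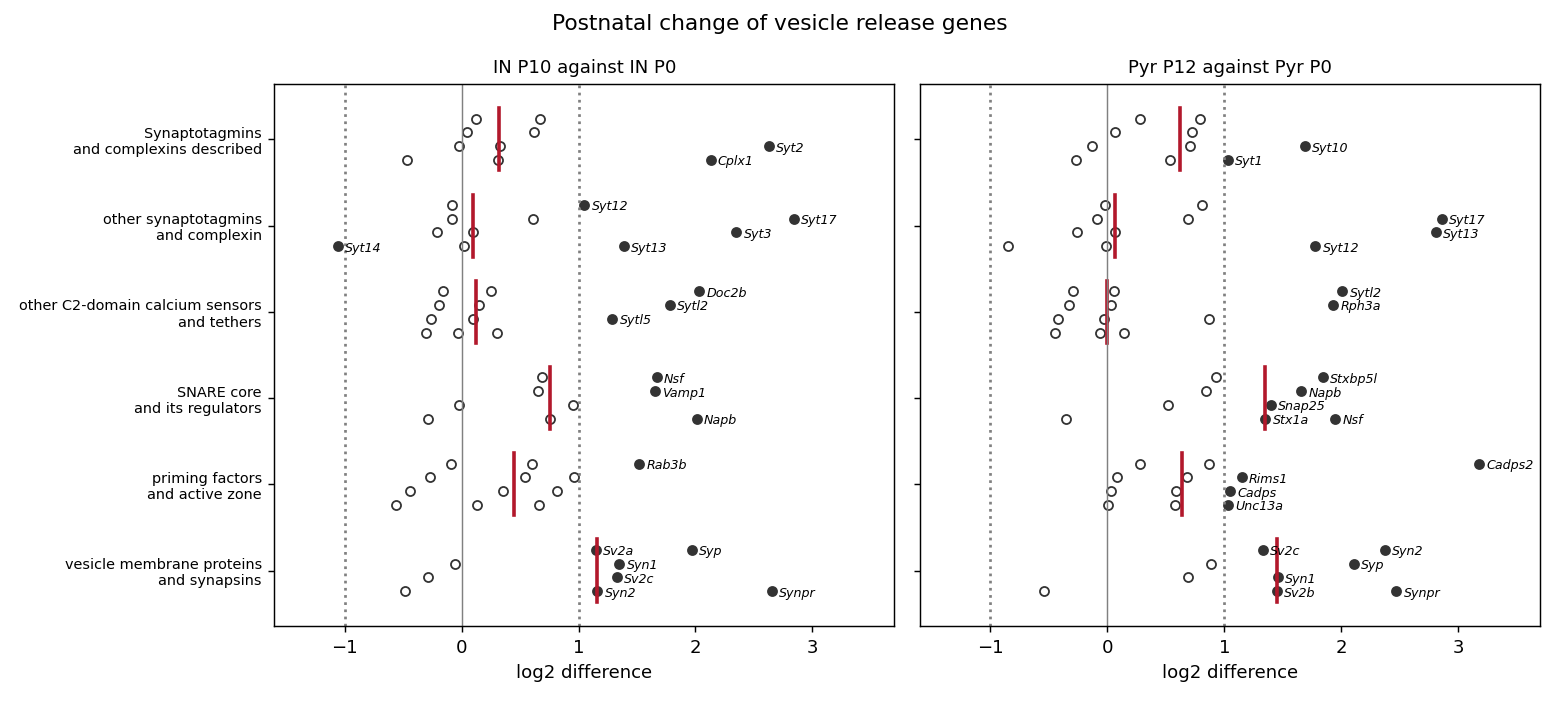
Log2 difference with age (x axis) of the genes of 6 lists (y axis) in interneurons (left) and pyramidal cells (right); each point is a gene, filled and named where it was called, and red bars are list medians. The medians of the 10 synaptotagmins and complexins described are 0.32 and 0.62, and those of the SNARE core are 0.76 and 1.35.

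Markers of other cells moved with some of these comparisons, and their part in the results was not tested. Over all probe sets, 4.19% were called higher and 2.85% lower in IN P10 against IN P0, and 5.68% and 3.48% in Pyr P12 against Pyr P0. Between the populations, 2.65% were called higher in IN P10 against Pyr P12 and 1.9% in IN P0 against Pyr P0. All 8 oligodendrocyte precursor markers were higher in interneurons, both at P0 and in the older pair. Their log2 summed signal was 13.09 to 13.79 in IN P10 and 13.43 to 13.76 in IN P0, against 11.18 to 11.28 in Pyr P12 and 10.89 to 11.25 in Pyr P0, where Bcas1 was not above background in either pyramidal group. Of 8 myelinating oligodendrocyte markers, 3 were higher in IN P10 against IN P0, the comparison in which Syt2 and Cplx1 rose, with summed signals of 12.58 to 13.01 in IN P10 against 11.35 to 11.47 in IN P0. The same list reached 11.10 to 11.17 in Pyr P12 and 10.72 to 10.82 in Pyr P0, and Opalin was not above background in any group. Of 8 astrocyte markers, 2 were higher in Pyr P12 against Pyr P0, the comparison in which Syt1 and Syt10 were called, with summed signals of 13.00 to 13.05 in Pyr P12 against 10.57 to 10.66 in Pyr P0, and 11.21 to 11.52 in IN P10 and 10.79 to 11.03 in IN P0. The called genes were Slc1a2, a glutamate transporter gene that averaged 12.72 in Pyr P12 and 8.55 in Pyr P0 (difference 4.17), and Aldh1l1 (1.29), while Slc1a3 had -0.46 and Gfap -0.02. Aldoc had 0.93 there, under the fold threshold, and was the 1 astrocyte marker called higher in IN P10 against IN P0 (1.29). The defining astrocyte markers Aqp4, Gja1 and Gjb6 were not above background in any group. Pyramidal markers in the interneuron arrays had a log2 summed signal of 12.41 to 12.51 in IN P10 and 13.54 to 13.80 in IN P0, against 14.86 to 14.93 in Pyr P12 and 14.87 to 14.97 in Pyr P0, and Neurod6 was not above background in IN P10. Of 11 pyramidal markers, 5 were called lower and 0 higher in IN P10 against IN P0 (Tbr1, Neurod6, Neurod2, Cux2 and Foxp2, list median -0.89). In that comparison Syt6 had -0.47. Interneuron markers were also present in the pyramidal arrays and moved with age there. Of 6 pan-interneuron markers, 5 were called lower in Pyr P12 against Pyr P0 (Gad1, Gad2, Dlx1, Dlx2 and Dlx5, list median -1.56), the comparison in which Syt1 and Syt10 rose. Their log2 summed signal was 10.30 to 10.50 in Pyr P12 against 11.59 to 12.16 in Pyr P0, and that of the interneurons 14.9 to 15 in IN P10 and 15.05 to 15.11 in IN P0. Of 8 markers of medial ganglionic eminence interneurons, Lhx6 (-1.44) and Erbb4 (-2.79) were called lower in the same comparison. In IN P10 against IN P0, 2 of these 8 were called higher (Tac1, 4.17, and Sst, 1.36) and 0 lower. Pvalb had 0.99, under the fold threshold, and averaged 7.83 in IN P10 and 6.84 in IN P0, where it was not above background. Of 7 caudal ganglionic eminence markers, 1 was called higher (Calb2, 3.1) and 0 lower. Of the 6 pan-interneuron markers, Slc32a1 was called higher (1.28) and Dlx2 (-1.62) and Dlx5 (-1.19) lower.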

How the data were processed

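GFP-labelled interneurons and pyramidal cells were sorted by FACS, and total RNA was amplified and hybridized to Affymetrix Mouse Gene 1.0 ST arrays. The authors normalized the arrays with RMA, and the deposited values are log2 signals per probe set, with 0 missing among 28192 probe sets and 12 arrays. RMA equalizes the distributions of the arrays, so a global difference in RNA amount is not visible. Versions and the genome build of this step are not given in the sources used here. Names came from the platform annotation: 22961 probe sets had a symbol and were tested, 1321 of them with several symbols and left unnamed, and the RefSeq table of GRCm38.p6 changed 0 symbols. A gene was read from its probe set with the highest mean.

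A single limma 3.58.1 model (R 4.3.3) held all 4 groups, with 8 residual degrees of freedom and no block, and p-values were adjusted over all 22961 probe sets. SAM, named in the study's methods, was run as an alternative with all 20 label permutations, as 3 arrays against 3 allow an exact p of at least 0.1. The fit was tested on simulated data. The members and lists were chosen with earlier results of these data known. Named were the 10 members, for each up to 3 genes of the most similar pattern, and genes of the lists called in at least 1 comparison, picked from these after their values were seen and given with their uncalled values in the others, and marker genes whose values bear on a list sum or on background. Same-lettered arrays of different groups had correlations of their deviations from -0.18 to 0.19, with 6 of 18 over 0.1, so letters were not taken as pairs. Figures were drawn with matplotlib 3.10.9.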

Additional observations from a re-analysis of the deposited data

Results flagged for a closer look

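For 7 of the 10 genes the postnatal change differed between interneurons and pyramidal cells at an adjusted p under 0.05 in limma, where 32.1% of all probe sets did so. As the change in interneurons minus that in pyramidal cells, the log2 differences were 2.56 for Syt2, 1.42 for Cplx1 and 0.39 for Syt4, and -0.36 for Syt1, -0.48 for Cplx2, -0.74 for Cplx3 and -1.07 for Syt10. The ages compared were P10 for interneurons and P12 for pyramidal cells, so the days between the groups differ as well. The Cplx3 value rests on groups not above background in interneurons and in Pyr P0. Groups of 3 arrays are too small for a test of single outlying arrays.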

How the results depend on the processing

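Of 50 member differences, 45 kept their direction and their side of the threshold under the alternatives computed gene by gene (other fits, filters, scalings and arrays left out). The other fits and the filters leave the log2 difference itself unchanged, so there only the adjusted p could move a call. Only the scalings and the arrays left out could move a direction or a side of the fold threshold, so much of this agreement was fixed in advance. SAM and the other thresholds were computed as counts of calls. Across 750 such values, 3 lost a call, 3 gained one and 3 changed sign; the changes of sign were uncalled differences near 0, when single arrays were left out (-0.0354 to 1e-04 for Cplx3 in IN P10 against IN P0, and -0.0267 to 0.0655 for Cplx1 in IN P0 against Pyr P0). Counts moved by over 1.5 times almost only through the fold threshold, by its construction. At a fold over 1.5, 4 genes were higher in IN P10 against IN P0, 5 higher in Pyr P12 against Pyr P0, 5 lower in IN P10 against Pyr P12 and 2 lower for age by population. With no fold threshold, 6 were higher and 1 lower in IN P10 against IN P0, 7 higher and 1 lower in Pyr P12 against Pyr P0, 7 lower in IN P10 against Pyr P12, 1 higher and 4 lower in IN P0 against Pyr P0, and 4 lower for age by population. Over all probe sets, a fold over 1.5, no fold threshold and a fold over 2 gave, in turn, 2190, 5131 and 962 higher and 2139, 5311 and 654 lower in IN P10 against IN P0, and 2775, 7570 and 1304 higher and 2014, 4985 and 799 lower in Pyr P12 against Pyr P0. They gave 1283, 3705 and 608 higher and 1716, 6986 and 669 lower in IN P10 against Pyr P12, 808, 2546 and 436 higher and 869, 2597 and 399 lower in IN P0 against Pyr P0, and 1239, 2700 and 514 higher and 1686, 4664 and 603 lower for age by population. Centring arrays on their median left 1 gene higher in Pyr P12 against Pyr P0, and leaving out arrays gave 1 to 2 there and 0 to 1 lower for age by population. With the replicate block 2 genes stayed called higher in IN P10 against IN P0, and the block changed no count of calls among the members.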

Other observations

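The other release genes were read in lists of 11, 12, 9, 12 and 9 genes. Among them, 5 were called higher in IN P0 against Pyr P0 (Rph3a, Syn2, Syt13, Rims2 and Syt17) and 3 lower (Syt3, Syt9 and Sv2b), where 1.9% and 1.74% of all probe sets were called. For 4 of the 5 the older groups lay closer together, and for Syt17 they did not, with 1.32 at P0 and 1.30, still called, in the older pair. Of the 3 lower genes, Sv2b differed more in the older pair (-2.70 at P0 and -4.63), Syt9 less (-1.22 and -0.44), and Syt3 in the other direction (-1.09 and 0.44). The pattern was picked after the values were seen, and picking genes by their gap at P0 itself favours smaller gaps in the older pair. Rph3a averaged 11.58 in IN P0 and 9.87 in Pyr P0, a difference of 1.71 (SE 0.08, adjusted p = 3.13e-09 in limma), while IN P10 and Pyr P12 differed by 0.02 (adjusted p = 0.856). Syn2, a synapsin gene, averaged 11.59 in IN P0 and 10.19 in Pyr P0 (difference 1.40), and 12.75 in IN P10 and 12.56 in Pyr P12 (difference 0.19). Syt13 had 1.33 at P0 and -0.09 in the older pair, and Rims2, an active zone gene, 1.07 and -0.37. The differences in postnatal change were -1.69 for Rph3a, -1.21 for Syn2, -1.42 for Syt13 and -1.44 for Rims2, each with an adjusted p under 0.05. Syt1 showed the same order on a smaller scale, with 0.51 at P0 and 0.16 in the older pair.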
